A study of Capra hircus with 12 samples.

Results

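The genes described here are the most abundant ones of the embryonic goat skin that stayed abundant throughout. Each had an RPKM (the reads of a gene scaled by its length and by the reads of the library) of at least 300 in all 9 RNA-seq samples, and 171 of the 20486 genes in the table met this rule. Skin was taken from the body side of Inner Mongolia cashmere goat embryos on embryonic day 45 (E45), 55 (E55) or 65 (E65), with 3 unrelated embryos per stage and no treatment. A directional library of polyadenylated RNA was made from each embryo, and the samples are named E45-1 to E65-3 after stage and embryo. The stages span the time around the onset of hair follicle formation, and the comparisons ask how the mRNA of these genes changed over it. The rule read the RPKM level in every sample, so levels, shares and ranks are given as a description without tests. It used no difference between stages directly, but it leaves out genes that dropped under 300 at any stage, which limits the decreases that can be seen.

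In any tissue a small group of genes supplies a large part of the mRNA. Such genes commonly encode ribosomal proteins, translation factors, the cytoskeleton and energy metabolism, and in developing skin also the matrix that fibroblasts secrete and the keratins of the epidermis. Because RPKM values are relative to all reads of a library, a larger share for some genes lowers the values of the others. No identifier in the table led to a gene symbol (0 of 20486 were found in the RefSeq gene table used), so no gene is assigned to these groups and the tissue label was not checked against marker genes. Genes are instead called by their place from 1 to 171 in the order of mean RPKM over the 9 samples, with the chromosome that the file gives. In these bulk samples, a change in the number of cells of a type and a change in RNA per cell cannot be told apart.

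The mean RPKM of the abundant genes ran from 5911 at place 1 to 323 at place 171, with a median of 754. There were 58 genes at a mean of 1000 or more and 19 at 2000 or more, while 37 had a mean under 500. Around the rule's threshold, the lowest members reached down to 300.33 RPKM in E45-1 and 300.93 in E45-3, whereas the nearest genes outside had minima of 299.92 in E45-1 and 297.46 in E55-2. A further 245 genes were at 300 or more in at least 1 sample but not in all, and 29 of them missed the threshold in a single sample. The number of genes at 300 or more was between 260 in E45-1 and 294 in E65-2, so the abundant genes made up 58.2% to 65.8% of the genes above the threshold in a sample.

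The gene at place 1, on chromosome 19, had the highest stage mean at all 3 stages. Its RPKM was 4367, 5271 and 4513 in the 3 E45 samples, 6342, 5288 and 6433 at E55, and 7631, 7078 and 6274 at E65. The E65 samples lay above all E45 samples and overlapped with E55. The log2 fold change in E65 vs. E45 was 0.57 ± 0.19 (SE), with an adjusted p of 0.0669 (limma, Benjamini-Hochberg over 16604 genes), which did not pass the threshold of 0.05. The gene at place 8, on chromosome 12, had overlapping stages, with stage means of 3360 ± 808, 3567 ± 440 and 3404 ± 419 RPKM (SD, n = 3).

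Although they are few, the abundant genes held between 26.9% and 37.7% of the summed RPKM of a sample, and the highest shares were those of the E65 embryos. Their share was 26.9%, 29.6% and 30.5% in the 3 E45 samples, 33.4%, 29.8% and 31.6% at E55, and 35.8%, 37.7% and 35.6% at E65. The 3 E65 samples were above all others, while the ranges of E45 and E55 overlapped. The stage means were 29.0% ± 1.87, 31.6% ± 1.82 and 36.4% ± 1.17 (SD, n = 3), a difference of 2.61 percentage points from E45 to E55 and of 4.80 points from E55 to E65. The summed RPKM of the abundant genes was 159009 ± 12452 on average in the E45 samples, 177259 ± 9927 in those of E55 and 214313 ± 11224 in those of E65 (SD, n = 3). All other genes together had 389271 ± 7908, 383748 ± 10756 and 374308 ± 566.

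**Figure D1:**
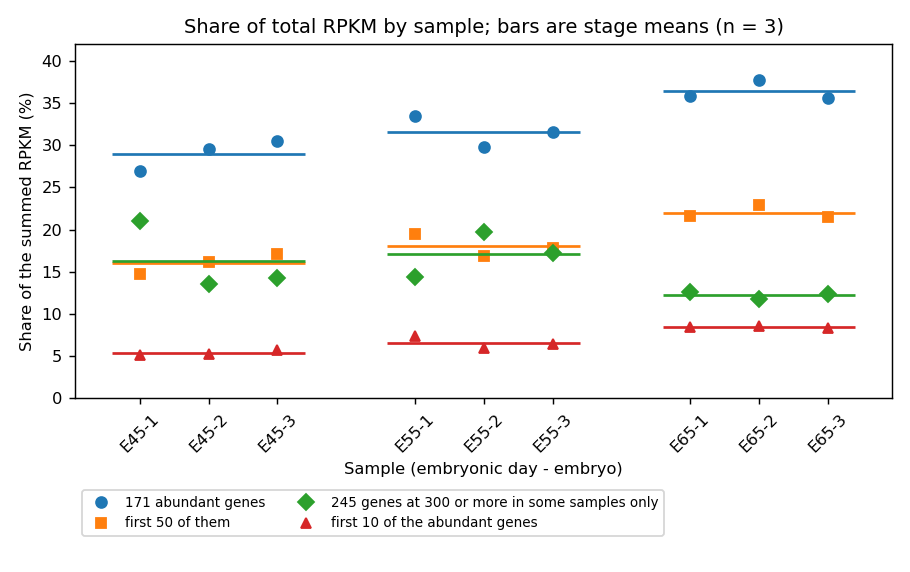
Share of the summed RPKM (y axis, percent) in each of the 9 samples (x axis), held by the 171 abundant genes, the first 50 and the first 10 of them, and the 245 genes at 300 or more in some samples only, with short lines at the stage means. The abundant genes reach 35.6% to 37.7% in the E65 samples, all above the E45 and E55 samples.

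The shares of parts of the list are given as a description only, because the places follow a mean that includes the E65 values, so that a gene that was higher at E65 also stands at a better place. The first 10 genes held 5.41% ± 0.332 at E45, 6.62% ± 0.666 at E55 and 8.46% ± 0.148 at E65 (SD, n = 3). The first 50 genes went from 16.0% to 18.1% and 22.0%. Places 51 to 171, though 121 genes, went from 13.0% to 13.5% and 14.4%. Of the 171 genes, 116 had a larger mean share at E65 than at E45 and 55 a smaller one. The gains summed to 8.40 percentage points, the losses to -0.988 points, and the 5 largest gains alone to 2.66 points.

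How much the share differed between stages depended on the genes that the rule leaves out. If the 171 highest genes were taken anew in each sample, a choice made after seeing the data, their share was 33.8% ± 2.47 at E45, 37.0% ± 0.662 at E55 and 37.9% ± 1.05 at E65 (SD, n = 3). The difference between E65 and E55 was then 0.880 percentage points, and the ranges of the E55 and E65 samples overlapped. With the 283 genes whose mean RPKM was at least 300, the shares were 39.9%, 43.3% and 43.7%, and E65 differed from E55 by 0.365 points. From E55 to E65 the lower share was that of the 245 genes at 300 or more in some but not all samples. They held 21.1%, 13.5% and 14.3% in the E45 samples, 14.4%, 19.7% and 17.2% at E55, and 12.6%, 11.8% and 12.3% at E65, with E45-1 and E55-2 standing highest. From E45 to E55 their mean share was not lower, and the 20070 genes under 300 in every sample went from 54.7% ± 2.49 at E45 to 51.3% ± 0.865 at E55 and 51.4% ± 0.783 at E65 (SD, n = 3).

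A few genes outside the list reached higher values than any abundant gene, in single samples. One on chromosome 1 had an RPKM of 11764 in E45-1 and 8061 in E55-2, 2010 in E45-2 and 301.29 in E45-3, and at most 7.20 in the other 5 samples. Another, on chromosome 6, was at 9504 in E45-1 and 5720 in E55-2. The pair took 2.19% and 1.77% of the summed RPKM of E45-1, the sample in which the abundant genes had their lowest share. Another, on chromosome 8, had 7979 RPKM in E55-3, its maximum, and 292.18 in E65-2, and so missed the rule in 1 sample. With all 245 such genes left out of the total (an alternative chosen after seeing the data), the share of the abundant genes was 34.6% ± 0.851 at E45, 38.1% ± 0.962 at E55 and 41.5% ± 1.14 at E65 (SD, n = 3). The 3 stages no longer overlapped, but this total leaves out genes because they crossed the threshold between samples, which can itself lower the spread. E45-1 was then at 34.1% and E45-2 at 34.2%.

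On the RPKM values as deposited, most abundant genes were higher at the later stages by small steps. In E65 vs. E45 their median log2 fold change was 0.27, with quartiles of 0.06 and 0.49 and a range from -1.01 to 2.49. The median over all 16604 genes tested was -0.07. The value was above 0 for 141 of the 171 abundant genes (82.5%), compared with 44.7% of all genes tested. In E55 vs. E45 the median was 0.09 for the abundant genes and -0.12 for all genes, and in E65 vs. E55 it was 0.21 and 0.06. The 3 comparisons share samples, so they are not independent of each other. The rule itself touches these counts, since a gene that dropped under 300 in any sample is not in the list. The higher median in E65 vs. E45 depended on the scaling, since under quantile normalization it was 0.07 for the abundant genes and 0.08 for all genes, and with samples scaled to an equal sum it was 0.17 and -0.17. In E55 vs. E45 it was 0.02 for the abundant genes without E45-1, and under quantile normalization it turned to -0.04, with 0.03 for all genes, whereas scaling to a common median gave 0.27 and 0.05. Leaving out E45-1 also lowered the number of genes above 0 in E65 vs. E45 from 141 to 127, and the number was 151 under scaling to a common median and 100 under quantile normalization.

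The shift was set beside that of less abundant genes, grouped by their lowest RPKM over the 9 samples. For the 478 genes with a minimum between 100 and 300 the median log2 fold change in E65 vs. E45 was 0.08, and 59.8% were above 0. For the 1724 genes between 30 and 100 it was 0.05, with 58.1% above 0, and for the 3233 genes between 10 and 30 it was 0.03, with 54.2%. On the values as deposited, the medians in E65 vs. E45 thus went down with abundance. In E65 vs. E55 they were not fully in this order, at 0.11, 0.09 and 0.10 for the 3 groups. The groups were not compared under other scalings. The shares of these groups went from 18.9% at E45 to 19.1% at E65 for the group of 100 to 300, from 22.2% to 21.4% for that of 30 to 100, and from 15.7% to 14.4% for that of 10 to 30.

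**Figure D2:**
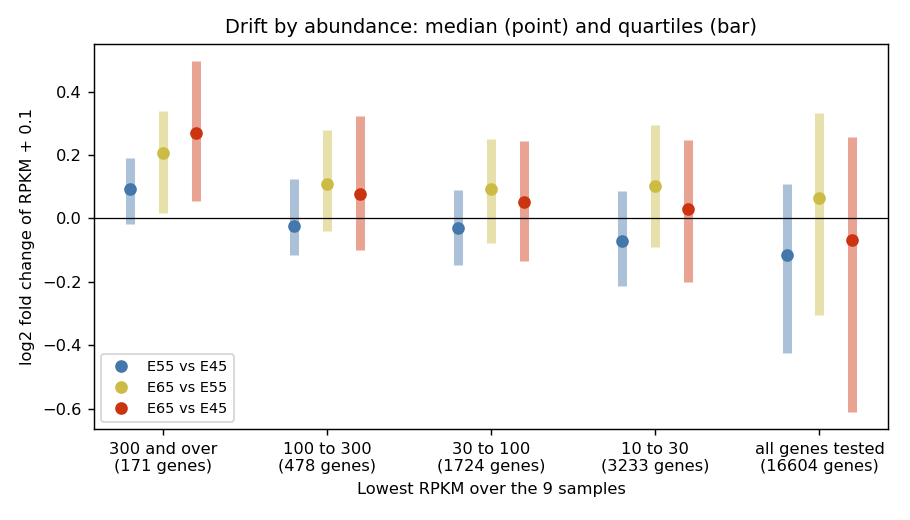
Median (points) and quartiles (bars) of the log2 fold change (y axis) of the abundant genes, of 3 groups of less abundant genes by lowest RPKM, and of all genes tested (x axis), with 1 colour per comparison of stages. On the values as deposited, the abundant genes have the highest medians in each comparison, at 0.09 from E45 to E55, 0.21 from E55 to E65 and 0.27 from E45 to E65.

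Few abundant genes passed the test for a change of 2-fold or more. A gene was called when it differed by at least 2-fold and its adjusted p was below 0.05 in limma's fit of log2(RPKM + 0.1), the scale of all fold changes given. All 171 genes passed the filter on low values. In E55 vs. E45, 1 of them was called (0.585%), where 0.891% of all genes tested were, and the unadjusted p was below 0.05 for 16 (9.36% against 18.5%). It increased, as did 0.397% of all genes tested. In E65 vs. E55, 4 abundant genes were called (2.34% against 5.18% of all genes), 3 increased (background 2.11%) and 1 decreased (background 3.07%). With a sample left out, the number called in E65 vs. E55 was 1 to 5, and it was 1 without E55-3 or E65-2. In E65 vs. E45, 9 were called (5.26% against 14.1%), of which 8 increased (background 4.9%) and 1 decreased (background 9.21%). The share called in E55 vs. E45 was near the background, and the count was between 0 and 3 over the 19 alternative fits. In the other comparisons it was below the background, a difference that was not tested. The shortfall lay mostly in the decreases, as the increases (1.75% and 4.68% of the abundant genes) were near their backgrounds. Both the share called and the balance of directions depended on the rule, which leaves out genes that dropped under 300 in any sample. Among the 283 genes with a mean of at least 300, 16 were called in E65 vs. E55 (7 increased and 9 decreased). In E65 vs. E45, 33 of these 283 were called (21 increased and 12 decreased).

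Without a threshold on the fold, the picture in E65 vs. E45 was different. An adjusted p under 0.05 was reached by 46 abundant genes (26.9% against a background of 20%), 45 of them increased (background 8.18%) and 1 decreased (background 11.8%). The 37 genes under 2-fold had log2 fold changes between 0.36 and 0.96, and all were increases. The number moved with the processing, to 19 under quantile normalization, 23 without a filter on low values or in the 6 samples compared alone, 29 with a replicate block and 30 with samples scaled to an equal sum, and to 51 with array weights, 53 with a minimum mean RPKM of 1 and 66 under scaling to a common median. It was also lower with any sample left out, between 15 without E65-2 and 35 without E65-1. It was 19 without E65-3, 22 without E45-3 and 25 without either E45-1 or E45-2. Leaving out an E55 sample, which is not part of the comparison, lowered it as well, to 29 without E55-3. At any fold, E65 vs. E55 had 7 such genes (background 7.19%), 5 increased (background 3.28%) and 2 decreased (background 3.9%). In E55 vs. E45 there was 1 (background 1.05%), which increased (background 0.494%), and 0 decreased in limma's test (background 0.554%). Over the 19 alternative fits these counts went from 1 (without E55-3 or E65-2) to 16 (with array weights) in E65 vs. E55 and from 0 to 5 (without E45-1) in E55 vs. E45.

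Genes whose stages did not overlap were counted on the same deposited values, so the counts are not separate support for the direction. The rule leaves out genes that dropped under 300 in any sample, which can itself lower the counts of genes that fell. All E65 samples exceeded all E45 samples for 73 abundant genes (background 15.7%) and lay below them for 5 (background 22.1%). Between E55 and E65 the counts were 58 higher (19.8%) and 8 lower (14.6%), and between E45 and E55 they were 31 higher (7.12%) and 2 lower (14.1%). For 10 genes the 3 stages were fully separated in rising order (background 1.23%), and for 0 genes in falling order (background 2.3%). By stage means, 96 genes were higher at both steps and 14 lower at both. The highest mean was at E65 for 123 genes, and at E45 and E55 for 24 each. No share over all genes is given for these counts by stage means, so they are a description only.

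The largest increase was that of GOAT_ENSP00000304408_gene, at place 20 on chromosome 2. It measured 677, 661 and 618 RPKM in the E45 samples, 2189, 1093 and 1465 at E55, and 3136, 3779 and 4106 at E65. The 3 stages were fully separated. The log2 fold change in E65 vs. E45 was 2.49 ± 0.24 (SE), with an adjusted p of 0.000562 (limma). The step from E55 to E65 was 1.27 ± 0.24 (adjusted p = 0.0181), and that from E45 to E55 was 1.22 ± 0.24 (adjusted p = 0.0513), just outside the threshold. The call in E65 vs. E55 was lost without E55-3 (adjusted p = 0.0835) and without E65-2 (adjusted p = 0.0583), as well as under quantile normalization (adjusted p = 0.0502) and in the 6 samples compared alone (adjusted p = 0.0501).

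GOAT_ENSBTAP00000006923_gene, at place 17 on chromosome 6, was the abundant gene called in E55 vs. E45. Its RPKM was 601, 993 and 683 at E45, 3056, 1838 and 1755 at E55, and 3156, 4015 and 2694 at E65. All E55 and E65 samples were above all E45 samples, while E55 and E65 overlapped. The increase in E65 vs. E45 was 2.13 ± 0.27 (adjusted p = 0.00149, limma), and in E55 vs. E45 it was 1.53 ± 0.27 (adjusted p = 0.0430). The E55 vs. E45 call was weak, as it was lost in 10 of 19 alternative fits, with adjusted p-values up to 0.137. It was lost without E45-2, E45-3, E55-1, E55-3 or any one of the E65 samples.

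The decrease called in E65 vs. E45 was that of GOAT_ENSBTAP00000002983_gene, at place 85 on chromosome 4. It had 711, 1228 and 917 RPKM at E45, 926, 751 and 901 at E55, and 412, 440 and 539 at E65. The E65 samples were below all others, and E45 and E55 overlapped. The log2 fold change was -1.01 ± 0.21 (adjusted p = 0.00985, limma) in E65 vs. E45 and -0.89 ± 0.21 (adjusted p = 0.0343) in E65 vs. E55. In E65 vs. E45 it was under 2-fold without E45-2 (-0.81), E65-1 (-0.93) or E65-2 (-0.98), and under scaling to a common median (-0.88).

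Among the 9 genes called in E65 vs. E45, the one at place 3 on chromosome 13 was the most uniform within E65. Its RPKM was 1809, 2373 and 2224 at E45, 3503, 2414 and 2379 at E55, and 6826, 6817 and 7049 at E65, where it was the highest gene of E65-3. The 3 stages were separated, although the lowest E55 sample (2379) was close to the highest of E45 (2373). The log2 fold change was 1.70 ± 0.20 (adjusted p = 0.00111, limma) in E65 vs. E45 and 1.34 ± 0.20 (adjusted p = 0.00848) in E65 vs. E55. It was the abundant gene with the smallest adjusted p in E65 vs. E55. This call held in all 19 alternative fits, though narrowly without E55-3 (adjusted p = 0.0492, limma).

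In the fit of all 9 samples, the genes at places 10 and 91 had their larger step before E55. Place 10, on chromosome 12, had 1212, 1183 and 1335 RPKM at E45, 4920, 2344 and 2601 at E55, and 5278, 4513 and 5123 at E65. E55-1 lay within the E65 range, and the other E55 samples lay between E45 and E65. That the first step was the larger at place 10 thus leaned on E55-1. Place 91, on chromosome 14, had 354, 308 and 304 RPKM at E45, 1041, 760 and 553 at E55, and 1342, 1271 and 599 at E65, so that E65-3 was within the E55 range. The log2 fold changes in E65 vs. E45 were 2.00 ± 0.26 (adjusted p = 0.00167, limma) for place 10 and 1.65 ± 0.32 (adjusted p = 0.00792) for place 91, and in E55 vs. E45 they were 1.32 (adjusted p = 0.0530) and 1.24 (adjusted p = 0.0895). For neither gene did a single step pass the threshold.

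The remaining increases were smaller. Place 89, on chromosome 7, had 361, 533 and 402 RPKM at E45, 662, 476 and 554 at E55, and 1339, 1300 and 959 at E65, with a log2 fold change of 1.48 ± 0.20 (adjusted p = 0.00185, limma) in E65 vs. E45. Its E65 samples were above all others, and it was also called in E65 vs. E55 (1.09, adjusted p = 0.0174), a call lost when any of E65-1, E65-2, E55-2 or E55-3 was left out and under quantile normalization. Place 27, on the same chromosome, had stage means of 1004 ± 186, 1610 ± 397 and 2444 ± 209 RPKM (SD, n = 3), 3 separated stages and a log2 fold change of 1.30 (adjusted p = 0.00447). Place 63, on chromosome 3, had means of 655 ± 162, 771 ± 123 and 1348 ± 263 RPKM and a log2 fold change of 1.06 (adjusted p = 0.0134), and was under 2-fold without E45-1 (0.83) and not called without E65-2 (adjusted p = 0.0517). It was also under 2-fold with samples scaled to an equal sum (0.95), under quantile normalization (0.79) and with array weights (0.89).

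The gene at place 56, also on chromosome 3, was highest at E55. It had 1093, 765 and 1292 RPKM at E45, 1293, 1193 and 1947 at E55, and 827, 519 and 661 at E65. The E65 samples lay below all E55 samples and overlapped with E45. It was the abundant gene called as decreased in E65 vs. E55 (-1.13 ± 0.26, adjusted p = 0.0357, limma), and its log2 fold change in E65 vs. E45 was -0.64 (adjusted p = 0.117). The call was lost when E55-2, E55-3 or any single E65 sample was left out, and without a filter on low values.

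**Figure D3:**
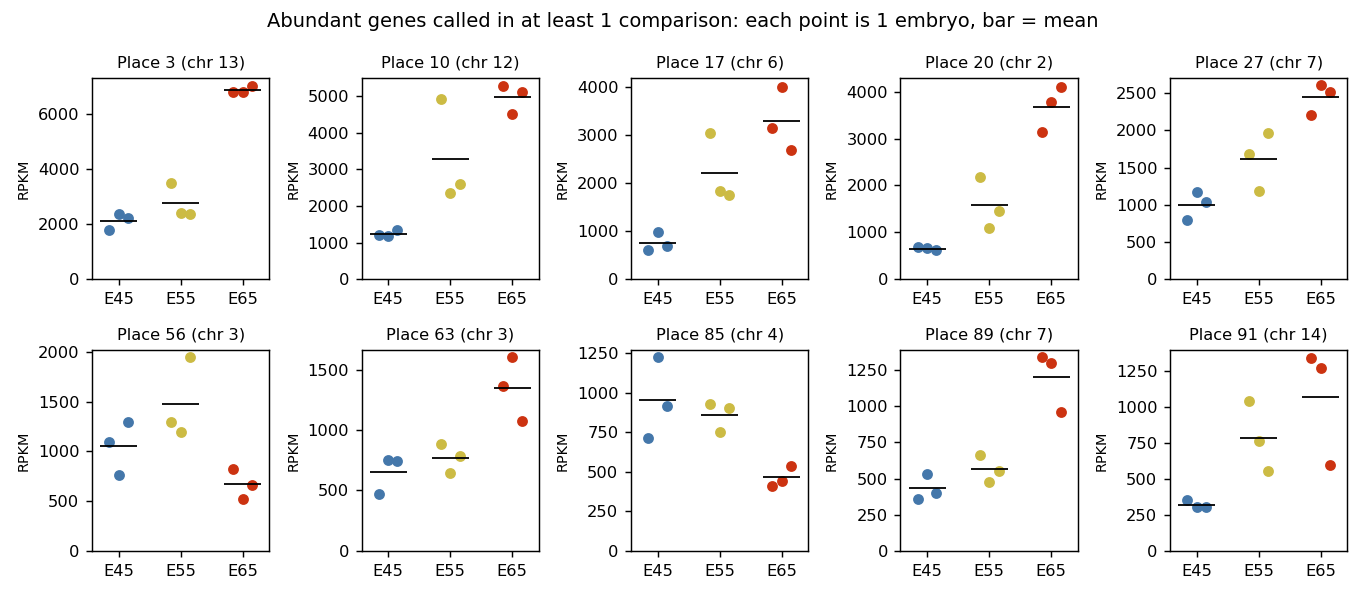
RPKM (y axis, from 0) of the 10 abundant genes called in at least 1 comparison, 1 panel per gene, with 3 samples per stage as points and the stage mean as a line. Places 85 and 56 have their lowest samples at E65, and the other 8 genes have their lowest samples at E45.

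Of the 8 genes that increased in E65 vs. E45, 7 had their highest E55 value in E55-1. Over all abundant genes, E55-1 was the highest E55 sample for 88 of 171. The 9 genes called in E65 vs. E45 together held 1.48% of the summed RPKM at E45, 2.57% at E55 and 4.31% at E65. This made up 2.82 of the 7.41 percentage points by which the share of all abundant genes differed between E45 and E65, or 38.1%. The other 162 genes went from 27.5% ± 1.73 to 29.0% ± 1.18 and 32.1% ± 1.10 (SD, n = 3), and their E65 samples were also above all E45 and E55 samples.

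**Figure D4:**
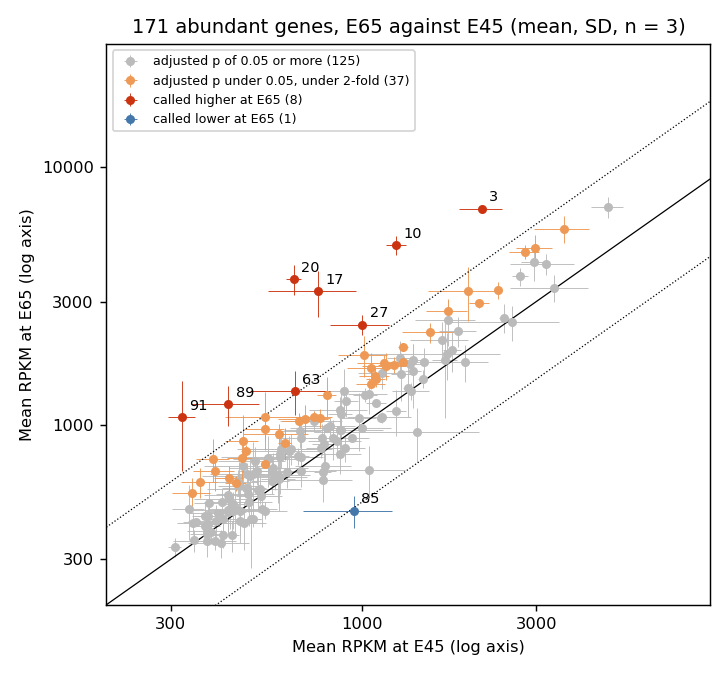
Mean RPKM of each abundant gene at E45 (log x axis) against E65 (log y axis), with SD bars over 3 samples, genes called in E65 vs. E45 labelled by their place, a solid line for equal values and dotted lines for 2-fold. The cloud lies slightly above the line of equal values, and places 10, 17 and 20 stand farthest above it.

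The ranks of the abundant genes among all 20486 genes were compared between stages. Spearman's rho between the stage means of the 171 genes was 0.944 for E45 and E55, 0.942 for E55 and E65, and 0.887 for E45 and E65, a description across genes that are not independent replicates. From E45 to E65, 101 genes moved to a better rank, 66 to a worse one and 4 kept theirs, with a median change of 13 ranks in either direction. The 3 ranks of a gene inside a stage spanned a median of 26 ranks at E45, 20 at E55 and 24 at E65, a span of single samples that is not the error of a change between means. For 54 genes the ranks in the E65 samples did not overlap with those at E45, with 39 better (22.8%, against 25.3% of all genes tested) and 15 worse (8.77% against 16%).

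The largest rank change was at place 91, which stood at rank 251 by its E45 mean, 102 at E55 and 62 at E65. Place 89 went from rank 176 to 137 and 57, place 20 from 104 to 36 and 10, and place 17 from 92 to 17 and 14. The genes at places 3 and 10 entered the first ranks, from 16 to 11 and 2 and from 44 to 9 and 4. In the other direction, place 85 went from rank 67 to 90 and 171, and place 56 from 57 to 38 and 114. Place 119, on chromosome 5, was among the genes with an adjusted p under 0.05 and less than 2-fold change (0.89, adjusted p = 0.00615, limma), and went from rank 192 to 145 and 107. These genes were picked as examples, and place 1 kept rank 1 by all 3 stage means.

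**Figure D5:**
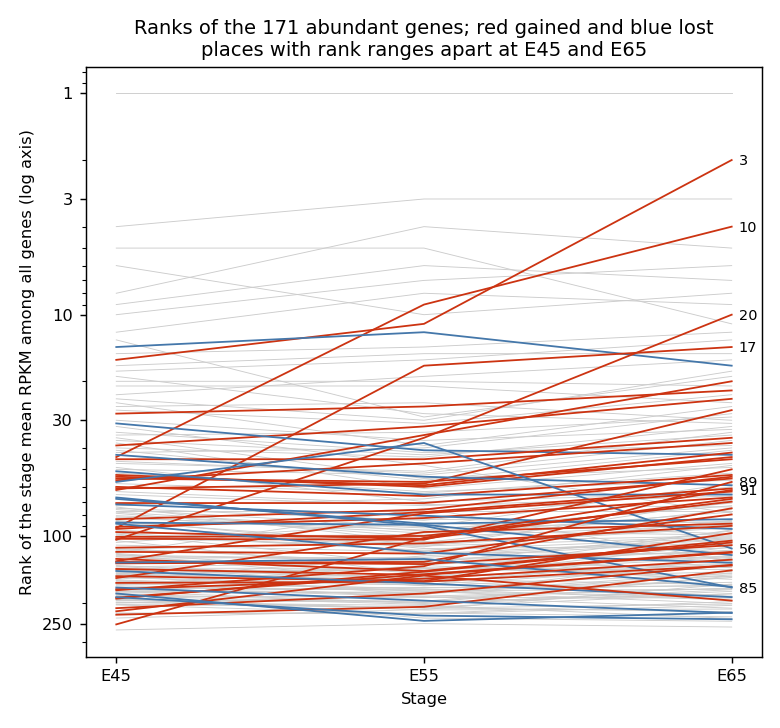
Rank of each abundant gene by its stage mean RPKM among all genes (log y axis, rank 1 at the top) at E45, E55 and E65 (x axis), with a line per gene, in red or blue for the 39 that gained (background 25.3%) and the 15 that lost rank (background 16%) with no overlap between the ranks of the E45 and E65 samples. Place 20 climbs from rank 104 to 10 and place 85 drops from 67 to 171, while most grey lines stay nearly level.

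The composition of the very top differed more between samples. Of the genes among the 10 highest of a sample, 3 were so in all 9 samples, and 22 were so in at least 1, of which 15 were abundant genes. The counts were 11 and 39 for the 20 highest, 29 and 87 for the 50 highest, and 106 and 258 for the 171 highest. The single highest gene was an abundant gene in 6 of the 9 samples, place 1 in 5 of them. The lowest rank of an abundant gene in any sample was 289.

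Within a stage, the median variation between embryos was lower for the abundant genes than for all genes tested. The median coefficient of variation over the 3 samples was 11.5% at E45, 8.79% at E55 and 12.9% at E65, compared with 21.8%, 17.6% and 16.7% for all genes tested. The genes with minima of 100 to 300 RPKM had similar medians of 12.5%, 7.96% and 11.3%. Those with minima of 30 to 100 had 12.9%, 8.73% and 10.4%, and those of 10 to 30 had 14.6%, 11.0% and 11.1%. At E65 all of these groups were thus below the abundant genes. The rule leaves out genes with a low value in any sample, which can itself lower the variation. A coefficient over 30% was seen for 5, 6 and 4 abundant genes at the 3 stages. The highest was 49.7% at E55 for place 84 on chromosome 18, which had 725, 1365 and 534 RPKM there, with E55-2 standing apart.

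Across all 9 samples the highest value of a gene was a median of 1.64 times its lowest, under 2-fold for 131 genes and over 3-fold for 11. The steadiest was place 53 on chromosome 17, between 1037 RPKM in E65-1 and 1187 in E55-2, a ratio of 1.15. The largest ratio was 6.68, at place 17. Another gene of wide range was place 48 on chromosome 8, with 2192 RPKM in E45-1 and 1866 in E55-2, and between 696 and 1134 in the other 7 samples. These 2 samples were also the ones in which the chromosome 1 and chromosome 6 genes outside the list were highest.

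Single samples stood apart over many of the genes. E45-1 was the lowest of the 9 samples for 98 of the 171 abundant genes (57.3%), and 138 lay below their E45 mean in it. The median deviation of the abundant genes in E45-1 from the stage mean was -0.15 on the log2 scale, and that of all genes tested was -0.12. E65-2 was the highest sample for 63 genes. E65-3 was the lowest sample for 24, although it belongs to the stage with the highest means. The part of E45-1 in the shift between E45 and E65 was measured by leaving it out, whereby the median log2 fold change in E65 vs. E45 was 0.19 instead of 0.27.

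The identifiers name the kind of gene model, which the rule did not use. Of the abundant genes, 94 (55.0%) carried the prefix GOAT_ENSBTAP, 70 (40.9%) GOAT_ENSP and 7 (4.09%) goat_GLEAN, compared with 42.5%, 39.2% and 18.3% of all genes in the table. A suffix -D was present on 4 (2.34% against 4.68%). The abundant genes were spread over 29 of the 30 chromosomes in the table, with 17 on chromosome 19 (1.50% of its genes) and 8 on chromosome 14 (1.62%). Chromosome 13 held 1, the gene at place 3, among 745 genes, and chromosome 26 held 0 among 402. The genome build behind these chromosomes is not given in the sources used here.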

How the data were processed

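RNA-seq reads of 9 skin samples were filtered by the authors with the FASTX-Toolkit and aligned to the goat genome with TopHat (TopHat2 in the submitters' processing notes). Reads with more than 1 location were discarded. The deposited values are RPKM per gene with 2 decimals, which the methods call FPKM. The genome build is not given in the sources used here. Small RNA tables were not used here.

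All columns were taken as deposited. Of 2748 low genes examined for whole reads, 111 (4.04%) gave them in all 9 samples within 0.0051 RPKM. Reads per gene were therefore not recovered from the values, and no counting interval is given. The authors' supplement lists raw and uniquely aligned reads for each sample. The share of an abundant gene is its RPKM over the summed RPKM of a sample. After a filter on the mean RPKM over the 9 samples (0.1 or higher), 16604 genes entered a single limma fit (limma 3.58.1, R 4.3.3) of log2(RPKM + 0.1) on stage, moderated with a trend. P-values were corrected over all 16604 genes with the Benjamini-Hochberg procedure. The authors compared stages with edgeR, which needs counts. Calls required at least 2-fold and an adjusted p below 0.05. The fit was tested on simulated data, the outcome of which is not given here. Tables were made with pandas 2.3.3 and numpy 2.4.6 and plots with matplotlib 3.10.9, in Python 3.11.15.

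Stages and embryos follow the labels, which give no batch. The members, lists and tests were chosen with earlier results of these data known. As no identifier matched a symbol, the rule for named genes gave by identifier up to 2 abundant genes that rose most and 2 that fell most in E65 vs. E45 among those called without overlap (1 fell), and other genes by place. The places described beyond the called genes, such as 1, 8, 48, 53, 84 and 119, were chosen after their values were seen. Lists of ribosomal, matrix, cytoskeletal and marker genes were not analysed. Alternatives were other pseudocounts, filters, scalings, sample weights, the 6 samples compared alone, a replicate block, other thresholds for abundance, other totals, and each sample left out in turn.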

Additional observations from a re-analysis of the deposited data

How the results depend on the processing

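Fold changes of the called genes kept their direction in all 19 alternative fits. The number called in E65 vs. E45 (9) was 8 to 10 in the other fits with no replicate left out and 7 to 11 with a sample left out. With abundance set at 200 in all samples it was 14 of 284 genes, at 500 it was 5 of 91, and for a mean of at least 300 it was 33 of 283. These counts are out of different totals, so they do not compare directly with 9 of 171. In E65 vs. E55 (4) it was 2 under quantile normalization, 16 of 283 for the mean rule, and 1 to 5 with a sample left out (1 without E55-3 or E65-2, 2 without E55-2 or E65-1). In E55 vs. E45 (1) it was 0 without a filter, in the 6 samples alone and with the replicate block. It was 3 with a minimum mean of 1, median scaling or array weights, 3 of 283 for the mean rule, and 0 to 3 with a sample left out. At any fold in E65 vs. E45 (46 of 171) it was 23 without a filter or in the 6 samples alone and 30 with samples scaled to an equal sum. It was 19 under quantile normalization and 15 to 35 with a sample left out. Under other rules for abundance the totals differed too, with 30 of 91 genes at a threshold of 500 and 77 of 283 for the mean rule. With the replicate block it was 29, and the block left 4 and 9 calls at 2-fold in E65 vs. E55 and E65 vs. E45. Deviations of samples with the same number correlated between -0.30 and 0.41 over 9 pairs. Samples with unlike numbers were not correlated for reference, so this does not decide whether the numbers pair the samples.

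The median log2 fold change in E65 vs. E45 (0.27) was 0.17 with an equal sum, 0.40 with median scaling, 0.0667 under quantile normalization and 0.19 to 0.33 with a sample left out. In E55 vs. E45 (0.09) it turned to -0.0402 under quantile normalization. The median of all genes in E65 vs. E45 was -0.17, 0.05 and 0.08 under these 3 scalings, and -0.07 as deposited. Median scaling gave 10 increases and 0 decreases in E65 vs. E45, and quantile normalization 1 of each in E65 vs. E55. The causes were not tested. Over all 19 fits, limma's count of calls among all genes was 0 (without E45-2) to 1213 in E55 vs. E45 (148 as reported), 218 to 1353 in E65 vs. E55 (860) and 1482 to 2806 in E65 vs. E45 (2343), so the background shares move too.

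The rule gave 284 genes at 200, 91 at 500, 283 by mean, and 171 to 179 with a sample left out. Shares at E45, E55 and E65 were 36.1%, 39.0% and 43.4% at 200, 22.1%, 24.3% and 28.5% at 500, and 39.9%, 43.3% and 43.7% by mean. Without the 5 highest genes they were 26.8%, 29.0% and 33.1%. Alternatives chosen after seeing the data gave 34.6%, 38.1% and 41.5% with the 245 genes out of the total, 28.8% and 32.0% at E55 and E65 without the called genes, and 33.8%, 37.0% and 37.9% for the highest genes of each sample. With a sample left out the ranges were 28.2% to 30.03%, 30.7% to 32.5% and 35.7% to 36.8%. With 3 samples per stage and no read counts per gene, a difference that missed a threshold is not shown to be absent.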
